A study of Mus musculus with 4 samples.

Results

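Mbp, Pmp22, Mag, Prx, Mal, Cnp, Sox10 and Egr2 are 8 genes of myelin and of the Schwann cell, the glial cell of peripheral nerves. They were taken by name from a single-cell RNA sequencing series of the mouse Achilles tendon, and all 8 have a row among the 15746 genes of the count table that were used. The series holds 1191 cells in 4 libraries, numbered 1 to 4, from untreated male C57Bl/6 mice aged 6 weeks. All libraries form 1 group of wild-type Achilles tendon. Nothing in the labels tells if a library is 1 mouse or a pool of mice, so the p-values below measure only the spread between these libraries. Each cell carries a population name given by the authors. Of 13 populations, 3 are called nerve cells: nerve cells 1 with 49 cells, nerve cells 2 with 46 and nerve cells 3 with 32, together 127 cells, against 1064 cells of other populations.

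Schwann cells ensheath the axons of peripheral nerves. Myelinating Schwann cells wrap a single axon in many membrane turns, which structural proteins such as those of Mbp and Pmp22 pack into compact myelin, while non-myelinating (Remak) Schwann cells hold several thin axons in a bundle without a sheath. The transcription factor Sox10 is kept through the whole lineage, and Egr2 (Krox20) is the factor that Schwann cells need in order to myelinate.

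Levels are given as CPM, the unique molecular identifiers (UMIs, 1 per captured transcript) of a gene, summed over the cells of a population in a library and scaled to the same total in every such sum. A sum entered a mean or a test with 5 or more cells. Nerve cells 1 had such sums in libraries 1, 2 and 3 (15, 23 and 10 cells), nerve cells 2 in libraries 1 and 2 (19 and 24 cells, with 3 more cells in library 3), and nerve cells 3 in libraries 1, 2 and 4 (15, 12 and 5 cells). The libraries held 1375111 to 5603366 UMIs each, 0 cell barcodes were shared between libraries, and the median cell had 4887 UMIs in nerve cells 1, 10370 in nerve cells 2 and 2591 in nerve cells 3. A single sum stood apart: in nerve cells 3 of library 4, 1 cell of 43707 UMIs made up 88.2% of the 49531 UMIs of 5 cells, so the differences of the 8 genes from nerve cells 3 are also given without it.

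The label of nerve cells was compared with Schwann cell and neuron markers. S100b (545 CPM in nerve cells 1, 309 in nerve cells 2 and 534 in nerve cells 3), Erbb3 (126, 97.2 and 299 CPM) and Cdh19 (114, 56.0 and 847 CPM) were present in all 3 populations. The mean of S100b in nerve cells 3 is uncertain. It ran from 138 to 1312 CPM over the libraries there, against 450 to 604 CPM in nerve cells 1. A UMI of S100b was seen in 11 of 32 nerve cells 3. Of 9 neuron markers, 5 have a row, and they summed to between 0 and 5.68 CPM in the libraries of nerve cells 1, 13.4 and 19.4 CPM in nerve cells 2 and 18.9 to 202 CPM in nerve cells 3. Most of this was Tubb3, a tubulin of neurons, with 17 UMIs in 6 cells of nerve cells 3, and Prph had 1 UMI there. The other 3 neuron markers, Rbfox3, Nefm and Stmn2, were at 0 UMIs in all 3 populations. Outside nerve cells, the 5 markers summed to 78.1 to 173 CPM in endothelial cells 1 and 16.8 to 176 CPM in endothelial cells 2. In tendon fibroblasts 1 and 2 they summed to at most 31.3 and 38.4 CPM. The part of neuron transcripts in the results on nerve cells 3 was not tested.

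In GRCm38.p6 (mm10), the RefSeq annotation places Pmp22 at chr11:63128982-63159547, Mag at chr7:30899175-30914922, Prx at chr7:27499305-27520041, Mal at chr2:127633226-127656695, Cnp at chr11:100574909-100591875, Sox10 at chr15:79154913-79164490 and Egr2 at chr10:67534469-67542188. RefSeq promoter windows (250 bases before to 50 after a transcript start, 300 in all) were matched for 6 of the 8 genes, in 15 windows, and searched on both strands for the SOX letters ACAAAG and ACAATG and the EGR letters GCGTGGGCG and GCGGGGGCG. The SOX letters stood in windows of Mag and Cnp and in no window of the other 4 genes searched. At least 1 of the SOX words is found in 28.6% of all 32851 windows and at least 1 of the EGR words in 3.47%, and no window of these 6 genes held an EGR word. The parts upstream of the gene are shown for Mag and Cnp, which hold the word, and for Prx, the gene with the widest difference between the nerve cell populations. They run 5′ to 3′ on the strand of the gene, with the SOX word in capitals. They lie at chr7:30914923-30915172 on the minus strand for Mag, at chr11:100574689-100574903 on the plus strand for Cnp and at chr7:27499074-27499304 on the plus strand for Prx.
Mag: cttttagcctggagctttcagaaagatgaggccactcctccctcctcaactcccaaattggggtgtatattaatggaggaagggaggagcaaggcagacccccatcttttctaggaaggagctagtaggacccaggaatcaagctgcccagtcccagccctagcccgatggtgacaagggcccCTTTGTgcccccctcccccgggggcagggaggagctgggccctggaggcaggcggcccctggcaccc
Cnp: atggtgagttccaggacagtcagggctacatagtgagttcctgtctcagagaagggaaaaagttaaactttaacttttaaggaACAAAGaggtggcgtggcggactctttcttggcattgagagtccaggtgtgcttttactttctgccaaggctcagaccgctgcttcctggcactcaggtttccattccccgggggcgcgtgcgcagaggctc
Prx: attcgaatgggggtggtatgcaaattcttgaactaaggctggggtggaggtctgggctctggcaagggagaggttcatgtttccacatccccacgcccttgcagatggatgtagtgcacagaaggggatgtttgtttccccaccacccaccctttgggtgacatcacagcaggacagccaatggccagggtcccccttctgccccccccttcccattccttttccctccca
In Mag the capitals are ACAAAG read on the other strand, 67 bases before the transcript start of that window. In Cnp they are on the strand of the gene, 167 bases before the start of its window's transcript. A match is a run of letters, and binding was not measured here.

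Over all libraries together, nerve cells held nearly all transcripts of most of the 8 genes, and Egr2 was spread more widely (the map of mean levels over the 13 populations). The 127 nerve cells held 97.6% of all Mbp UMIs, 98.6% of Mal, 97.4% of Prx, 98.9% of Sox10, 93.4% of Cnp and 85.0% of Pmp22. Mag, an adhesion protein of the myelin membrane next to the axon, had 290 UMIs in nerve cells and 0 in the other 1064 cells, which makes it at least 1053-fold higher in nerve cells (floor of 3 counts over all other cells). Egr2 had 338 UMIs in nerve cells and 255 elsewhere, so that nerve cells held 57.0% of it. That share was 32.1%, 82.7%, 27.5% and 12.5% in libraries 1 to 4 and 29.4% without library 2. For Pmp22 it was 73.1%, 98.1%, 67.6% and 10.4%, and 67.2% without library 2. In library 4, which had 6 nerve cells, the share was 58.5% for Mbp, 29.4% for Prx, 44.4% for Cnp and 100% for Sox10. Mal and Mag had 0 UMIs in that library.

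**Figure D1:**
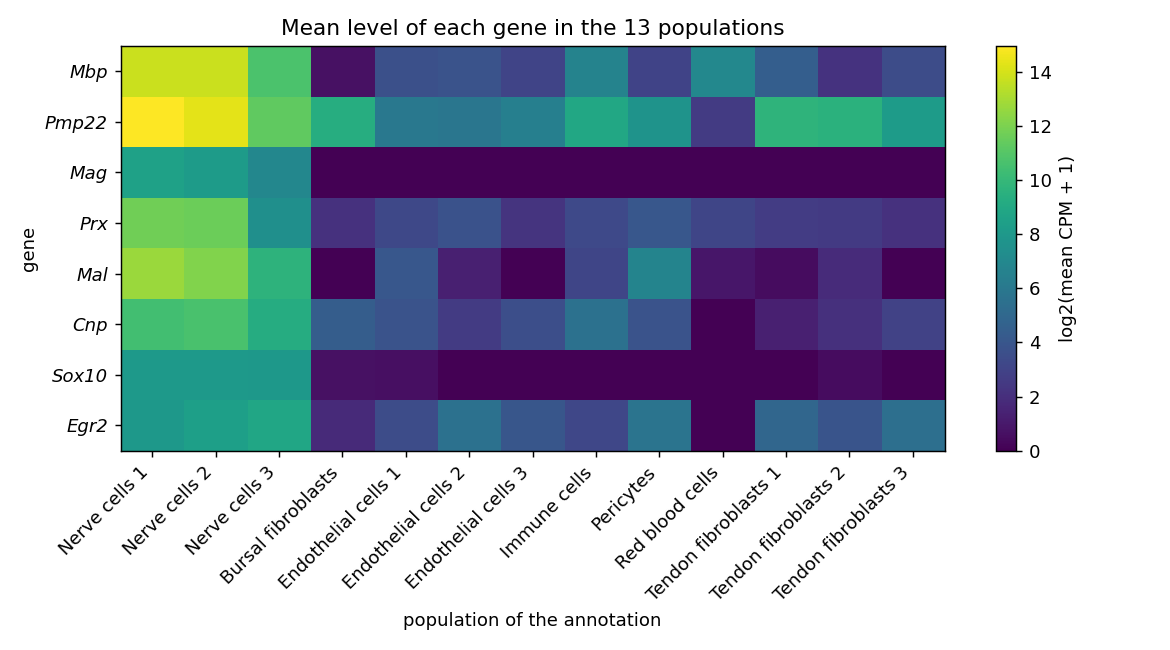
Mean level of each gene as log2(mean CPM + 1) over the libraries with 5 or more cells, for the 8 genes (rows) and the 13 populations (columns), with nerve cells 1 to 3 at the left. Mag is at 0 in every population other than nerve cells, while Pmp22 and Egr2 are seen in several.

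With nerve cells and other cells summed per library, 7 of the 7 genes that could be tested were higher in nerve cells (quasi-likelihood test of edgeR, adjusted p of 0.0043 or lower), where 8.70% of the 8693 genes tested were called higher in nerve cells and 21.9% were called in either direction. The differences on the log2 scale were 8.09 ± 0.88 (SE) for Mbp, 5.23 ± 0.98 for Pmp22, 7.71 ± 1.04 for Prx, 9.26 ± 0.71 for Mal, 6.60 ± 0.63 for Cnp, 9.44 ± 0.52 for Sox10 and 3.09 ± 0.39 for Egr2. Mag did not pass the filter on low counts. The populations were named from the same counts, so this test measures how repeatable the difference was over 4 libraries and not whether these cells are nerve cells.

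Outside nerve cells, the genes differed in where they were found. Pmp22 stood at 842 ± 138 CPM (SD, n = 4) in tendon fibroblasts 1, from 684 to 982 CPM, and at 532 to 1112 CPM in tendon fibroblasts 2, 382 to 777 CPM in bursal fibroblasts and 371 to 608 CPM in immune cells. The range of tendon fibroblasts 1 overlaps those of both other fibroblast populations and lies above that of immune cells. The level in nerve cells 3 of library 4, 868 CPM, lay inside the range of tendon fibroblasts 1. Pmp22 is also known for a role in growth arrest of fibroblasts, from which it was first cloned. Egr2 was found at 0 to 90.4 CPM in pericytes, 13.5 to 84.1 CPM in endothelial cells 2 and 3.78 to 46.9 CPM in tendon fibroblasts 1, below the 183 to 329 CPM of nerve cells 1. Egr2 is an early growth response gene, and many cell types switch it on briefly after stimulation.

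Mbp was found in immune cells at 74.1 to 119 CPM over 3 libraries, a range above the 14.3 to 39.1 CPM of tendon fibroblasts 1. A UMI of Mbp was seen in 36 of 92 immune cells (39.1%, exact 95% interval 29.1 to 49.9), against 28 of 173 tendon fibroblasts 1 (16.2%) and 19 of 190 endothelial cells 1 (10.0%), populations with a median of 7109, 8824 and 7343 UMIs a cell. With every cell thinned to 2400 UMIs, the shares were 12.6%, 5.59% and 4.55%. Mag and Sox10 had 0 UMIs in the 92 immune cells, which allows a share of up to 3.26% of cells with a UMI for each. In library 2, all 5 Mbp UMIs of the immune cells lay in 1 of 10 cells. Mbp also encodes the golli proteins, which are known in cells of the immune system, and counts of transcript ends do not tell these transcripts apart.

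Between the 3 nerve cell populations, the genes fell into groups. The membrane and sheath genes Mbp, Pmp22, Prx and Mal stood high in nerve cells 1 and 2 and lower in nerve cells 3, Cnp and Mag differed less, and the transcription factors Sox10 and Egr2 had ranges that overlap in all 3 populations (the plot of levels by library). The 3 comparisons were fitted together with edgeR over 39 sums of all populations, with the library as a block and 9964 genes tested. Between nerve cells 1 and 2, 0 of the 8 genes were called at an adjusted p of 0.05, with 1.89% of all genes called (0.151% or 15 genes higher and 1.74% or 173 genes lower in nerve cells 1). Also 0 of 8 had an unadjusted p under 0.05, and DESeq2 called 0 of 8. Between nerve cells 1 and 3, 4 of 8 were higher in nerve cells 1 and 0 lower, with 3.71% of all genes called higher, 5.25% lower and 8.96% in all. DESeq2 called 3 of the 8, with 344 of all genes called higher and 454 lower. Between nerve cells 2 and 3, 4 of 8 were higher in nerve cells 2 and 0 lower, with 3.82% of all genes called higher, 3.98% lower and 7.81% in all. DESeq2 called 2 of the 8. With only the 8 sums of nerve cells fitted and 1580 genes tested, 1, 6 and 5 of the 8 genes were called in the 3 comparisons, where 16.2% (5.95% higher and 10.3% lower), 42.4% (19.8% and 22.6%) and 32.2% (15.4% and 16.8%) of genes were called. The 3 comparisons share sums, so they are not independent of each other. The median log2 difference of the 8 genes was 0.06, 1.84 and 1.91 in the 3 comparisons, against -0.05, 0.07 and 0.16 over all genes.

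**Figure D2:**
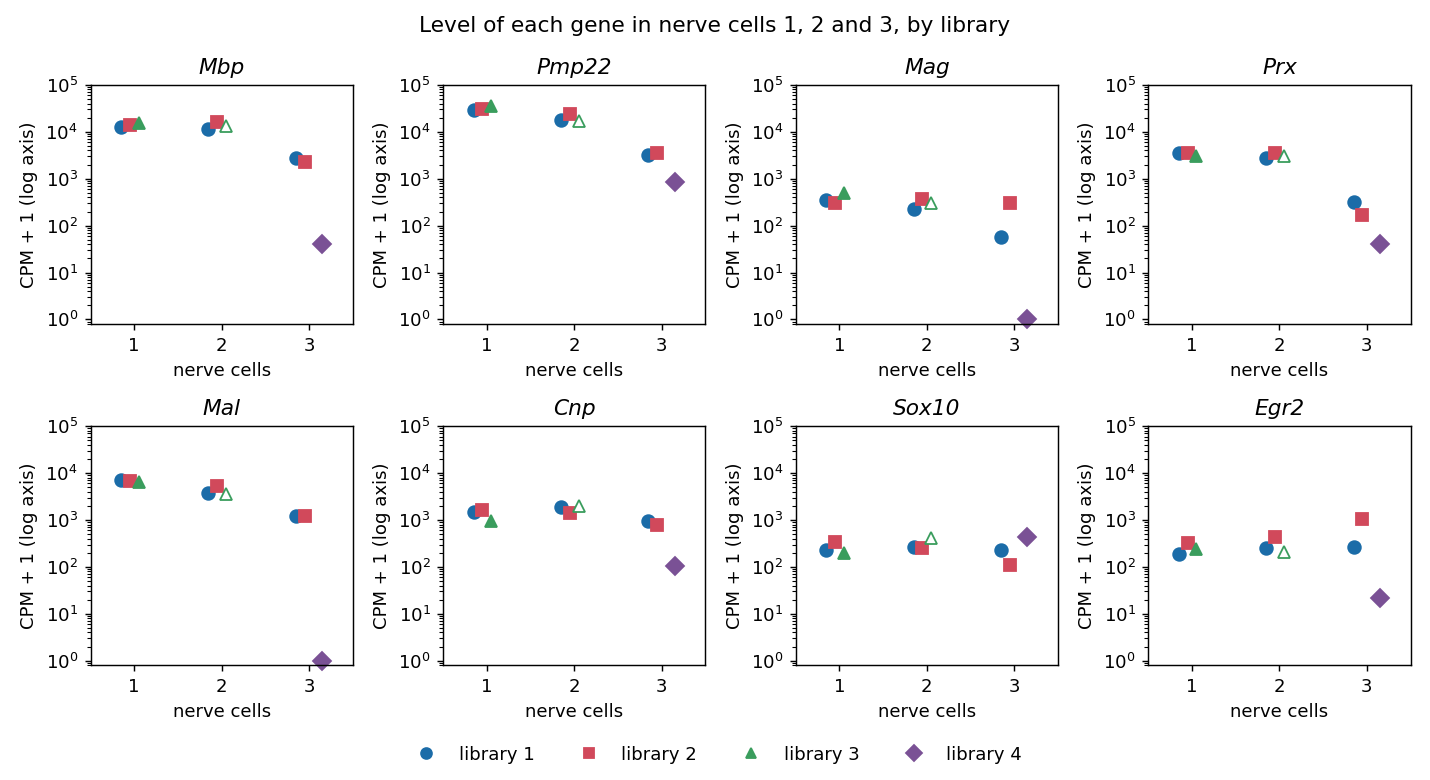
CPM + 1 of each gene (log axis) in nerve cells 1, 2 and 3, 1 point for each library, filled where the sum holds 5 or more cells and open for the 3 cells of nerve cells 2 in library 3. In Mbp, Pmp22, Prx and Mal, every point of nerve cells 3 lies below every point of nerve cells 1 and 2. In Cnp this holds narrowly (at most 945 CPM in nerve cells 3, at least 964 CPM in nerve cells 1). No share of all genes that separate in this way is given.

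The scaling moved the comparison of nerve cells 1 with nerve cells 2. With the size factors of DESeq2 or RLE in place of TMM, the median difference over all genes moved by 0.27 on the log2 scale, and the genes called were 63 higher and 115 lower with RLE, or 97 higher and 123 lower with DESeq2. Between nerve cells 2 and 3 the median moved by -0.25 with RLE (241 called higher and 516 lower) and by -0.17 with DESeq2 (197 higher and 413 lower). Relative to the median of all genes, Pmp22 stood 0.48 above it between nerve cells 1 and 2 in the TMM fit, 0.69 with RLE and 0.69 with DESeq2, and Cnp stood at -0.34, -0.15 and -0.21 from it.

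Mbp encodes myelin basic protein, which holds the inner faces of the myelin membrane together, and lies at chr18:82475091-82585637. It stood at 12487.5, 13811 and 15617 CPM in nerve cells 1 of libraries 1, 2 and 3, at 11326 and 16275 CPM in nerve cells 2 of libraries 1 and 2, and at 2817, 2257 and 40.4 CPM in nerve cells 3 of libraries 1, 2 and 4. Nerve cells 1 and 2 overlap, and all 3 values of nerve cells 3 lie below them, the value of library 4 by far the lowest. The log2 difference was 0.01 ± 0.73 (SE, adjusted p = 1) between nerve cells 1 and 2, 3.02 ± 0.79 (adjusted p = 0.0062) between nerve cells 1 and 3, and 3.01 ± 0.80 (adjusted p = 0.0098) between nerve cells 2 and 3. Without the sum of library 4 in nerve cells 3, the latter pair was 2.80 ± 0.78 (adjusted p = 0.013) and 2.81 ± 0.80 (adjusted p = 0.019). Without library 2, Mbp was called in neither comparison with nerve cells 3 (adjusted p = 0.065 and 0.19), and DESeq2 did not call it between nerve cells 2 and 3 (adjusted p = 0.11).

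Pmp22 encodes a small tetraspan protein of compact myelin, whose dosage is changed in the inherited neuropathies CMT1A and HNPP. It stood at 28926, 30684 and 35644 CPM in nerve cells 1, 18191 and 24011 CPM in nerve cells 2, and 3157, 3495 and 868 CPM in nerve cells 3. With only 2 or 3 sums each, the 3 populations do not overlap, and the 3 cells of nerve cells 2 in library 3 (16890 CPM) also lie between. Within a library, nerve cells 1 were above nerve cells 2 by 1.59-, 1.28- and 2.11-fold in libraries 1, 2 and 3, the last from those 3 cells. This difference was within the error of the fit, with 0.44 ± 0.60 on the log2 scale (adjusted p = 0.91). Against nerve cells 3 the difference was 3.85 ± 0.59 for nerve cells 1 (adjusted p = 2.7e-06) and 3.41 ± 0.60 for nerve cells 2 (adjusted p = 5.2e-05), or 3.43 ± 0.65 and 3.02 ± 0.66 without the sum of library 4.

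Mal encodes a lipid-raft protein of myelin membranes that takes part in sorting of myelin components. It was at 7036, 6752 and 6403 CPM in nerve cells 1, 3695 and 5244 CPM in nerve cells 2, and 1191, 1238 and 0 CPM in nerve cells 3. As for Pmp22, the populations do not overlap, with only 2 or 3 sums each. In library 4, 0 of 49531 UMIs in nerve cells 3 were Mal, which allows up to 60.6 CPM (floor of 3 counts). Nerve cells 1 were above nerve cells 2 by 1.90-, 1.29- and 1.80-fold in libraries 1 to 3, and the fit gave 0.10 ± 0.72 (adjusted p = 1). In a fit of only the sums of nerve cells, with 1580 genes, the difference was 0.83 ± 0.28 and Mal was called (adjusted p = 0.0497), with 5.95% of genes called higher in nerve cells 1. Against nerve cells 3 the difference was 2.36 ± 0.74 for nerve cells 1 (adjusted p = 0.031) and 2.25 ± 0.76 for nerve cells 2 (adjusted p = 0.058). The first was lost with DESeq2 (adjusted p = 0.52) and without library 1 or library 2 (adjusted p = 0.12 and 0.34), while the second was called under 8 of 13 alternatives, among them no library block (2.87, adjusted p = 0.043) and the fit of nerve sums only (1.89 ± 0.31, adjusted p = 1.0e-04, with 15.4% of genes called higher in nerve cells 2). The fit of all populations also takes in the pericytes of library 3 (403 CPM of Mal), where 1 cell held all 30 UMIs, and the part of that sum was not tested. Without the sum of library 4 in nerve cells 3, the differences were 2.32 ± 0.67 (adjusted p = 0.018) and 2.22 ± 0.70 (adjusted p = 0.041), both called, and the mean of nerve cells 3 moved from 810 to 1215 CPM.

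Prx encodes periaxin, a scaffold protein at the outer, abaxonal membrane of the myelinating Schwann cell that is needed to keep myelin stable. It was at 3484, 3595 and 3006 CPM in nerve cells 1, 2714 and 3469 CPM in nerve cells 2, and 321, 165 and 40.4 CPM in nerve cells 3. Nerve cells 1 and 2 overlap, and both lie far above nerve cells 3. Within libraries 1 and 2, nerve cells 1 were 10.8- and 21.8-fold above nerve cells 3, and nerve cells 2 were 8.45- and 21.0-fold above them. The fit gave 0.10 ± 0.46 (adjusted p = 1) between nerve cells 1 and 2, 4.48 ± 0.56 (adjusted p = 2.7e-08) between nerve cells 1 and 3, and 4.38 ± 0.57 (adjusted p = 1.1e-07) between nerve cells 2 and 3. Without the sum of library 4, the last pair was 4.07 ± 0.57 and 3.98 ± 0.57. Prx and Pmp22 were called in both comparisons with nerve cells 3 under every alternative that was run.

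Cnp encodes a phosphodiesterase of the non-compact, cytoplasm-filled parts of the sheath. It was at 1450, 1670 and 964 CPM in nerve cells 1, 1867.5 and 1422 CPM in nerve cells 2, and 945, 771 and 101 CPM in nerve cells 3. Nerve cells 1 and 2 overlap, and the highest value of nerve cells 3 lies just below the lowest of nerve cells 1. The fit gave -0.39 ± 0.41 between nerve cells 1 and 2 (adjusted p = 0.86), 1.19 ± 0.43 between nerve cells 1 and 3 (adjusted p = 0.073) and 1.57 ± 0.44 between nerve cells 2 and 3 (adjusted p = 0.017). The comparison of nerve cells 1 with 3 was called under 5 of 14 alternatives, among them no library block (1.40, adjusted p = 0.033) and the fit of nerve sums only (1.09 ± 0.31, adjusted p = 0.0089, with 19.8% of genes called higher in nerve cells 1). The comparison of nerve cells 2 with 3 was lost with RLE (adjusted p = 0.089), with DESeq2 (0.26), without library 1 (0.11) or library 2 (0.12), and without the sum of library 4 in nerve cells 3 (1.28 ± 0.42, adjusted p = 0.055), where nerve cells 1 against 3 stood at 0.89 ± 0.41 (adjusted p = 0.21).

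Mag was at 350, 301 and 490 CPM in nerve cells 1, 228 and 367 CPM in nerve cells 2, and 56.7, 303 and 0 CPM in nerve cells 3. In library 2 nerve cells 3 stood at the level of nerve cells 1, and in library 1 they were 6.17-fold below, so the populations overlap. All cells of nerve cells 1, 2 and 3 together held 104, 172 and 14 UMIs of Mag. The difference from nerve cells 3 was 1.33 for nerve cells 1 (adjusted p = 0.20) and 1.34 for nerve cells 2 (adjusted p = 0.18), neither called, and the first was called without the library as a block (2.04, adjusted p = 0.037). Without the sum of library 4 they were 1.24 (adjusted p = 0.21) and 1.27 (adjusted p = 0.18). Between nerve cells 1 and 2 the fit of all populations gave -0.01 and the fit of nerve sums only 0.26 ± 0.39, and no error is given for Mag in the first, where it is 0 in most sums.

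Sox10 was at 233, 346 and 196 CPM in nerve cells 1, 269 and 247 CPM in nerve cells 2, and 227, 110 and 424 CPM in nerve cells 3. The means were 259, 258 and 254 CPM, and the 3 populations overlap. In nerve cells 3 of library 4, 17 of the 21 UMIs of Sox10 lay in the 1 cell of 43707 UMIs, and without that sum the mean of nerve cells 3 was 168 ± 82.6 CPM (SD, n = 2). The fit gave 0.10 ± 0.36 between nerve cells 1 and 2 (adjusted p = 1), 0.84 ± 0.49 between nerve cells 1 and 3 (adjusted p = 0.34) and 0.74 ± 0.48 between nerve cells 2 and 3 (adjusted p = 0.44). Without the sum of library 4 the latter pair was 1.002 ± 0.54 (adjusted p = 0.31) and 0.89 ± 0.53 (adjusted p = 0.41). The range over the alternatives was 0.02 to 1.44 for nerve cells 1 against 3, and none called it.

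Egr2 was at 183, 329 and 245 CPM in nerve cells 1, 249 and 436 CPM in nerve cells 2, and 265, 1073 and 20.2 CPM in nerve cells 3. The order of the means, 253, 342 and 453 CPM, runs against that of the sheath genes, and the range of nerve cells 3 spans both other populations. In nerve cells 3 of library 2, 24 of the 39 UMIs of Egr2 lay in 1 cell of 7619 UMIs. By the medians of single cells, 205, 242 and 11.4 CPM, nerve cells 3 stood lowest. The fit gave -0.51 ± 0.48 between nerve cells 1 and 2 (adjusted p = 0.81), -0.65 ± 0.50 between nerve cells 1 and 3 (adjusted p = 0.52) and -0.14 ± 0.48 between nerve cells 2 and 3 (adjusted p = 0.99). With only nerve sums fitted, Egr2 was lower in nerve cells 1 than in nerve cells 3, at -1.08 ± 0.40 (adjusted p = 0.036), where 22.6% of genes were called lower in nerve cells 1. Without library 2, the sign of both differences from nerve cells 3 turned (0.25 and 0.59, neither called). Without the sum of library 4 in nerve cells 3 they were -0.96 ± 0.48 (adjusted p = 0.26) and -0.44 ± 0.47 (adjusted p = 0.73).

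**Figure D3:**
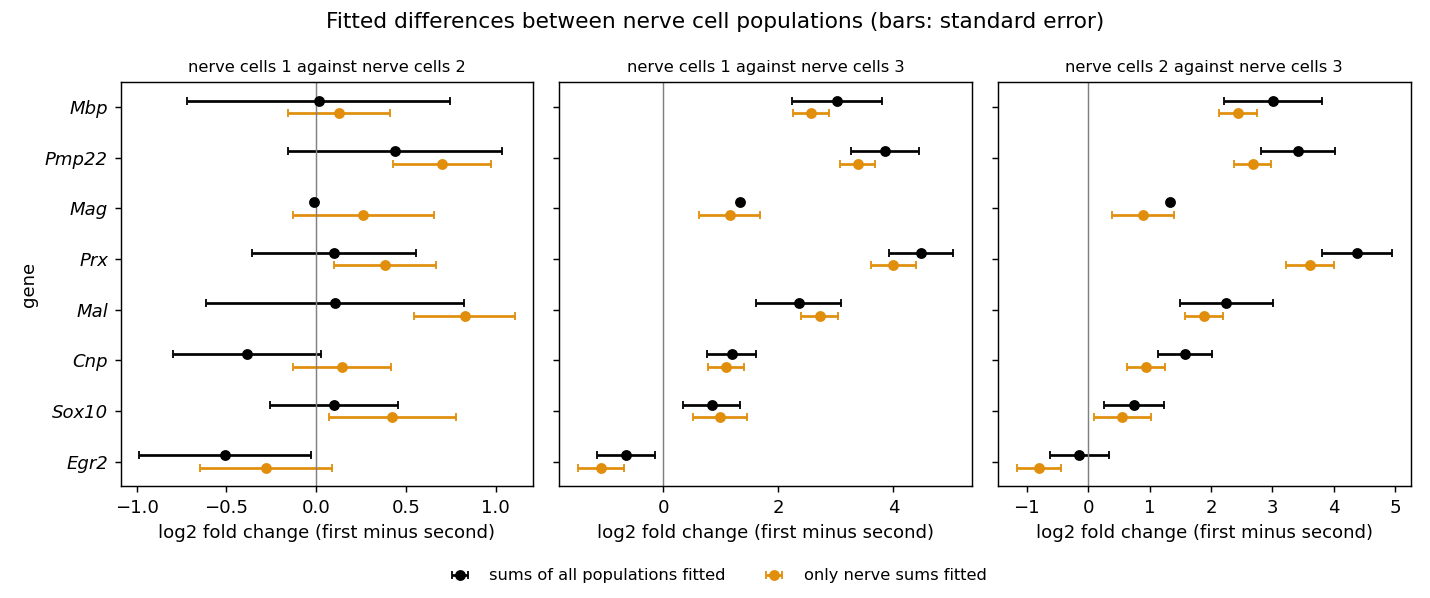
Fitted log2 differences of the 8 genes (rows) in the 3 comparisons (panels), with bars of 1 standard error, from the fit of all populations (black) and from the fit of nerve sums only (orange). Mbp, Pmp22, Prx and Mal lie right of 0 in both comparisons with nerve cells 3, Egr2 lies left of 0, and Mag has no bar in the first fit.

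Among the UMIs of the 8 genes, the mix differed between populations. Pmp22 made up 54.2% of them in nerve cells 1, 46.7% in nerve cells 2 and 37.8% in nerve cells 3, and Prx 5.96%, 6.84% and 2.81%. Sox10 and Egr2 together were a small part in nerve cells 1 (0.510% and 0.498%) and nerve cells 2 (0.547% and 0.791%), and a larger one in nerve cells 3 (4.15% and 6.06%), where the summed level of the 8 genes was 6421 CPM over all cells against 57524 and 47384 CPM.

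In single cells, the medians of Mbp, Pmp22, Prx and Mal were also lower in nerve cells 3 (the plot of single nerve cells). At least 1 UMI of Mbp and Pmp22 was found in all 49 nerve cells 1 and all 46 nerve cells 2, and in 28 and 32 of the 32 nerve cells 3. Prx was found in 48 of 49, 46 of 46 and 8 of 32 cells, and Mag in 38 of 49, 40 of 46 and 10 of 32. Sox10 was found in 37, 39 and 14 cells, and Egr2 in 33, 38 and 16. Thinned to 2400 UMIs a cell, with 2, 1 and 13 shallower cells left out, the share with a UMI of Prx was 100%, 100% and 26.3% (5 of 19 cells, exact 95% interval 9.15 to 51.2), against 1.14% of 176 endothelial cells 1 and 1.24% of 161 tendon fibroblasts 1. The other sheath genes differed less in thinned shares. Those of Mag were 48.9%, 46.7% and 36.8%, with intervals that overlap. Thinned shares of Mbp were 100%, 100% and 89.5%, and of Pmp22 100%, 100% and 94.7%. For Mal they were 97.9%, 100% and 89.5%, and for Cnp 89.4%, 95.6% and 68.4%. Thinned shares of Sox10 were 53.2%, 44.4% and 36.8%, with intervals that overlap, and those of Egr2 44.7%, 46.7% and 52.6%.

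**Figure D4:**
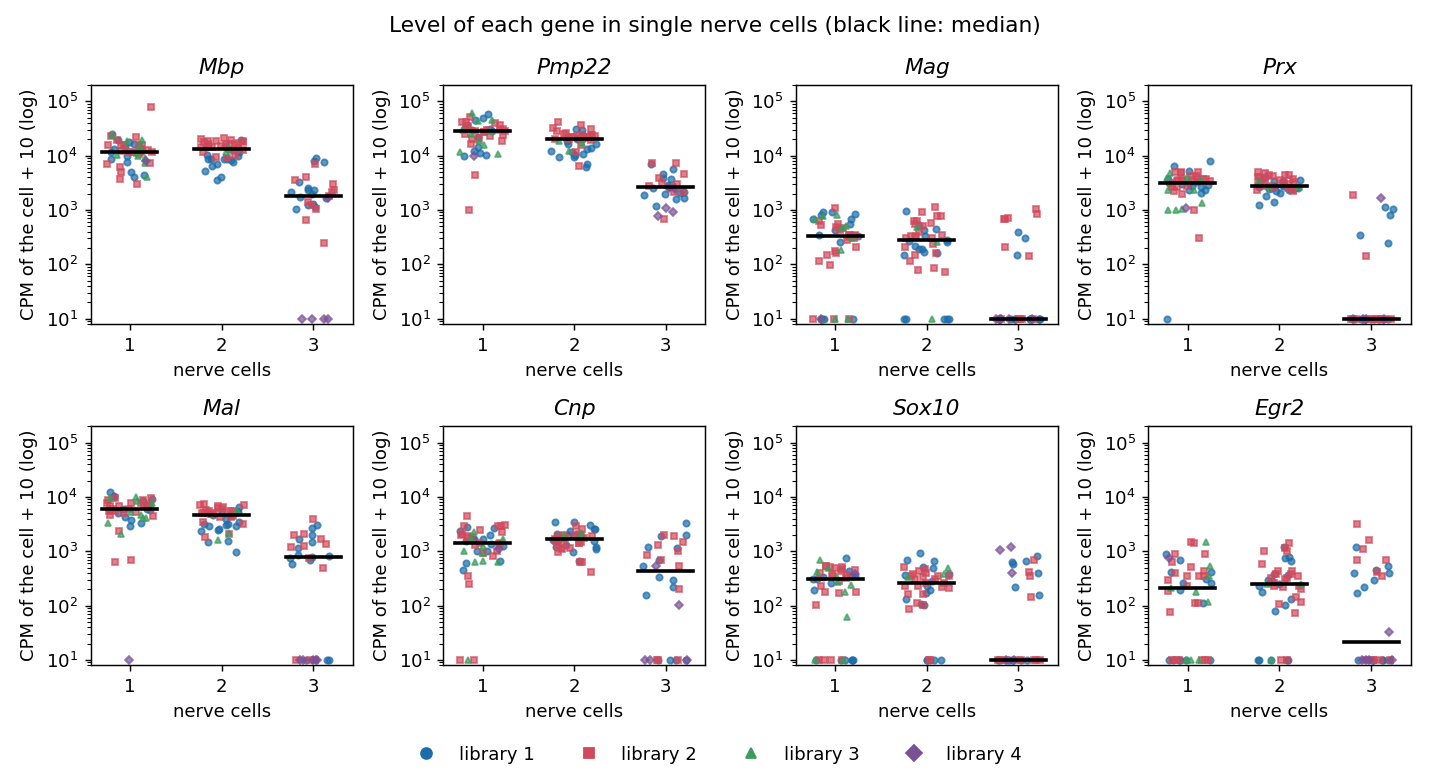
CPM of each cell + 10 (log axis) for the 8 genes in nerve cells 1, 2 and 3, 1 point per cell with its library by colour and shape, and a black line at the median. Cells at the bottom have 0 UMIs, and the median of nerve cells 3 lies there for Mag, Prx and Sox10.

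All 8 genes were found together in 20 of 49 nerve cells 1, 29 of 46 nerve cells 2 and 1 of 32 nerve cells 3. The median number of these genes found in a cell was 7, 8 and 5. Neither Mag nor Prx was found in 15 of the 32 nerve cells 3, and in 0 cells of the other two populations. Of 14 nerve cells 3 with a UMI of Sox10, 9 had none of Mag or Prx. These counts are not thinned, and nerve cells 3 have the fewest UMIs a cell.

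Nerve cells 3 were not uniform. A k-means clustering of the nerve cells into 3 clusters, made without the genes of the lists below, put all 49 nerve cells 1, all 46 nerve cells 2 and 5 nerve cells 3 in 1 cluster and split the other nerve cells 3 into 23 and 4 cells. With 4 or 5 clusters, nerve cells 1 and 2 stayed in 1 cluster. The 5 nerve cells 3 grouped with nerve cells 1 and 2 had a median of 1229 UMIs and 6249 UMIs in all. They held Mbp at 4321 CPM (27 UMIs), Pmp22 at 2720 CPM, and Prx (3 UMIs) and Mal at 480 CPM each. Cnp and Sox10 stood at 320 CPM each in them, and Mag and Egr2 at 0 UMIs. The other 27 had a median of 2943 UMIs. Summed over them, Mbp (1554 CPM), Pmp22 (2415 CPM), Prx (166 CPM) and Sox10 (264 CPM) were lower. Mal (792 CPM), Cnp (611 CPM), Mag (106 CPM) and Egr2 (407 CPM) were higher in those 27 cells. The library 4 cell of 43707 UMIs is among the 27, which held 132521 UMIs in all. It had 33 of their 320 UMIs of Pmp22, 17 of 35 of Sox10, and 0 of Mbp, Mag, Prx and Mal. The lower level of Pmp22 in the 27 rests on that cell. With the rebuilt clusters in place of the annotation, Pmp22, Prx, Mbp and Mal were called higher in the cluster of nerve cells 1 than in those of nerve cells 3, as was Cnp (1.19, adjusted p = 0.041).

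Other myelin genes followed from lists of the pathway. Beside the counts of every list below, 0.151% of all genes were called higher and 1.74% lower between nerve cells 1 and 2. The shares were 3.71% and 5.25% between nerve cells 1 and 3, and 3.82% and 3.98% between nerve cells 2 and 3. With only nerve sums fitted, 16.2%, 42.4% and 32.2% of genes were called in the 3 comparisons. Between nerve cells 1 and 2, 0 of 16 further genes of compact myelin and its junctions were called (median 0.05; 0 at an unadjusted p under 0.05; 0 with DESeq2; 1 with only nerve sums fitted). Between nerve cells 1 and 3, 10 of 16 were higher in nerve cells 1 and 0 lower (median 3.20, or 2.98 with genes at 0 UMIs held at their bound), and DESeq2 called 5. Ncmap, a protein of non-compact myelin, was higher by 4.80 ± 0.68 (adjusted p = 8.8e-07), and the tetraspanin Cd9 by 2.31 ± 0.66 (adjusted p = 0.015). Between nerve cells 2 and 3, 11 of 16 were higher in nerve cells 2 (median 2.79), and 1, Tspan2, was lower, with 0 UMIs in nerve cells 2 and 7 in nerve cells 3, and DESeq2 called 4 of the 16.

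Myelin needs much cholesterol and galactolipid. Of 21 genes of myelin lipid and cholesterol synthesis, 0 were called between nerve cells 1 and 2 (median -0.43; 3 at an unadjusted p under 0.05; 1 with DESeq2; 3 with only nerve sums fitted). In nerve cells 1, 16 of 21 were higher than in nerve cells 3 and 0 lower (median 2.71), and in nerve cells 2 it was 15 of 21 and 0 (median 3.24), where DESeq2 called 13 and 11. Over all genes, 3.71% and 3.82% were called higher in these comparisons. Ugt8a, the enzyme that makes galactosylceramide, stood at 1534, 1062 and 833 CPM in nerve cells 1 and 75.6, 55.0 and 0 CPM in nerve cells 3, a difference of 4.58 ± 0.58 (adjusted p = 2.2e-07). Hmgcs1, an enzyme early in cholesterol synthesis, differed by 2.92 ± 0.46 (adjusted p = 3.8e-06) and the desaturase Scd2 by 2.33 ± 0.44 (adjusted p = 0.00011). Idi1, a further enzyme of that pathway, was not called between nerve cells 1 and 3 (0.30 ± 0.46, adjusted p = 0.81) and was higher in nerve cells 2 than 3 by 1.66 ± 0.44 (adjusted p = 0.0087).

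Among 13 regulators of Schwann cell differentiation that were tested, 0 were higher and 4 lower in nerve cells 1 than in nerve cells 2 (median -0.85), and DESeq2 called 3. Between nerve cells 1 and 3, 0 were higher and 3 lower, with 1 called by DESeq2. Between nerve cells 2 and 3, 1 was higher and 0 lower (median 0.42), with 3 called by DESeq2. With only nerve sums fitted, 7 regulators were tested. In nerve cells 1, 0 were higher and 5 lower than in nerve cells 2, and 0 and 5 than in nerve cells 3. In nerve cells 2, 1 was higher and 4 lower than in nerve cells 3 (median -1.12). That fit called 10.3%, 22.6% and 16.8% of its genes lower in the 3 comparisons. Of all genes, 1.74% were called lower in nerve cells 1 than 2, 5.25% lower in nerve cells 1 than 3, and 3.82% higher in nerve cells 2 than 3. Pou3f1 (Oct6, a factor of the promyelinating stage) stood at 300, 335 and 441 CPM in nerve cells 1, 4373 and 2675 CPM in nerve cells 2, and 284, 82.6 and 121 CPM in nerve cells 3. It was lower in nerve cells 1 than in nerve cells 2, at -3.55 ± 0.44 (adjusted p = 1.1e-07) and higher in nerve cells 2 than in nerve cells 3 by 4.68 ± 0.50 (adjusted p = 1.3e-09). Jun, which is known to act against the myelin program and is also an early response gene, was lower in nerve cells 1 than in nerve cells 2, at -4.05 ± 0.58 (adjusted p = 3.0e-06), and than in nerve cells 3, at -4.90 ± 0.57 (adjusted p = 6.2e-09). In the fit of all populations, Sox2 and Id2 were also called between nerve cells 1 and 2. Foxd3 (-3.16 ± 0.58, adjusted p = 0.00017) and Sox2 were called there with Jun between nerve cells 1 and 3. Zeb2 was called in none of the comparisons of that fit (adjusted p of 0.15 to 0.997).

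Of 12 listed genes of non-myelinating Schwann cells, 9 were tested. Between nerve cells 1 and 2, 0 were called (0 at an unadjusted p under 0.05, and 0 with DESeq2). All but Sorcs1 had at most 3 UMIs in each of these populations, so a call was hardly possible. In nerve cells 1, 7 of 9 were lower than in nerve cells 3 (median -7.89 as fitted, or -5.92 with 7 genes at their bound), and DESeq2 called 3. Over all genes, 5.25% were called lower. A gene at 0 UMIs in nerve cells 1 passed the filter on low counts only through other populations. It could not come out higher here, so such calls are a description and not a test. Against nerve cells 2, 8 were lower in that population than in nerve cells 3 and 1, Sorcs1, was higher, and DESeq2 called 3 of the 9. There 3.98% of all genes were called lower, and the same limit holds for genes at 0 UMIs in nerve cells 2. The sodium channel gene Scn7a had 0 UMIs in nerve cells 1 and 2 and 3025, 3687.5 and 20.2 CPM in nerve cells 3 of libraries 1, 2 and 4, at least 211-fold above nerve cells 1 and at least 361-fold above nerve cells 2. The adhesion molecule Chl1 was at 775, 1101 and 747 CPM in nerve cells 3 against 0 UMIs in both others (at least 84.3- and 144-fold higher). Cadm2 was at 964, 853 and 60.6 CPM there (at least 60.7-fold above nerve cells 1), and Ptprz1 had 0, 55.0 and 2039 CPM, nearly all of it in library 4.

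Genes kept through the Schwann lineage moved both ways. Of 13 tested, 0 were called between nerve cells 1 and 2 (2 at an unadjusted p under 0.05; 1 with DESeq2; 4 with only nerve sums fitted), while 2 were higher and 3 lower in nerve cells 1 than in nerve cells 3, and 0 higher and 3 lower in nerve cells 2 than in nerve cells 3 (4 and 2 with DESeq2). The 3 lower in both were Lgi4, Matn2 and Cdh19. Lgi4, a secreted ligand of Schwann cells, was lower in nerve cells 1 than 3, at -4.62 ± 0.56 (adjusted p = 2.1e-08), as was Matn2, a matrix protein, at -3.33 ± 0.60 (adjusted p = 4.9e-05). Sema3b (1.61 ± 0.40, adjusted p = 0.0046) and Dhh (2.27 ± 0.54, adjusted p = 0.0028), which codes for the hedgehog signal of Schwann cells, were higher in nerve cells 1. Kcna1 was called in none (adjusted p of 0.98 to 1). Of 9 genes of the injury response of Schwann cells, 7 have a row and 2 were tested. Ccl2 stood at 101 and 13.9 CPM in nerve cells 2 of libraries 1 and 2 (20 UMIs in 4 cells) and at 37.8, 27.5 and 0 CPM in nerve cells 3, ranges that overlap, with nerve cells 2 the lower in library 2. The fit called it higher in nerve cells 2 (4.30 ± 1.28, adjusted p = 0.026), while DESeq2 and the fit of nerve sums only called 0 of the 2, and Bdnf was called in none. The level of the whole list was 0 CPM in nerve cells 1 and 107 and 13.9 CPM in nerve cells 2 of libraries 1 and 2. In nerve cells 3 it was 56.7, 27.5 and 323 CPM in libraries 1, 2 and 4. The last is the sum of which 1 cell made up 88.2%, and the first 2 lie within the range of nerve cells 2.

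**Figure D5:**
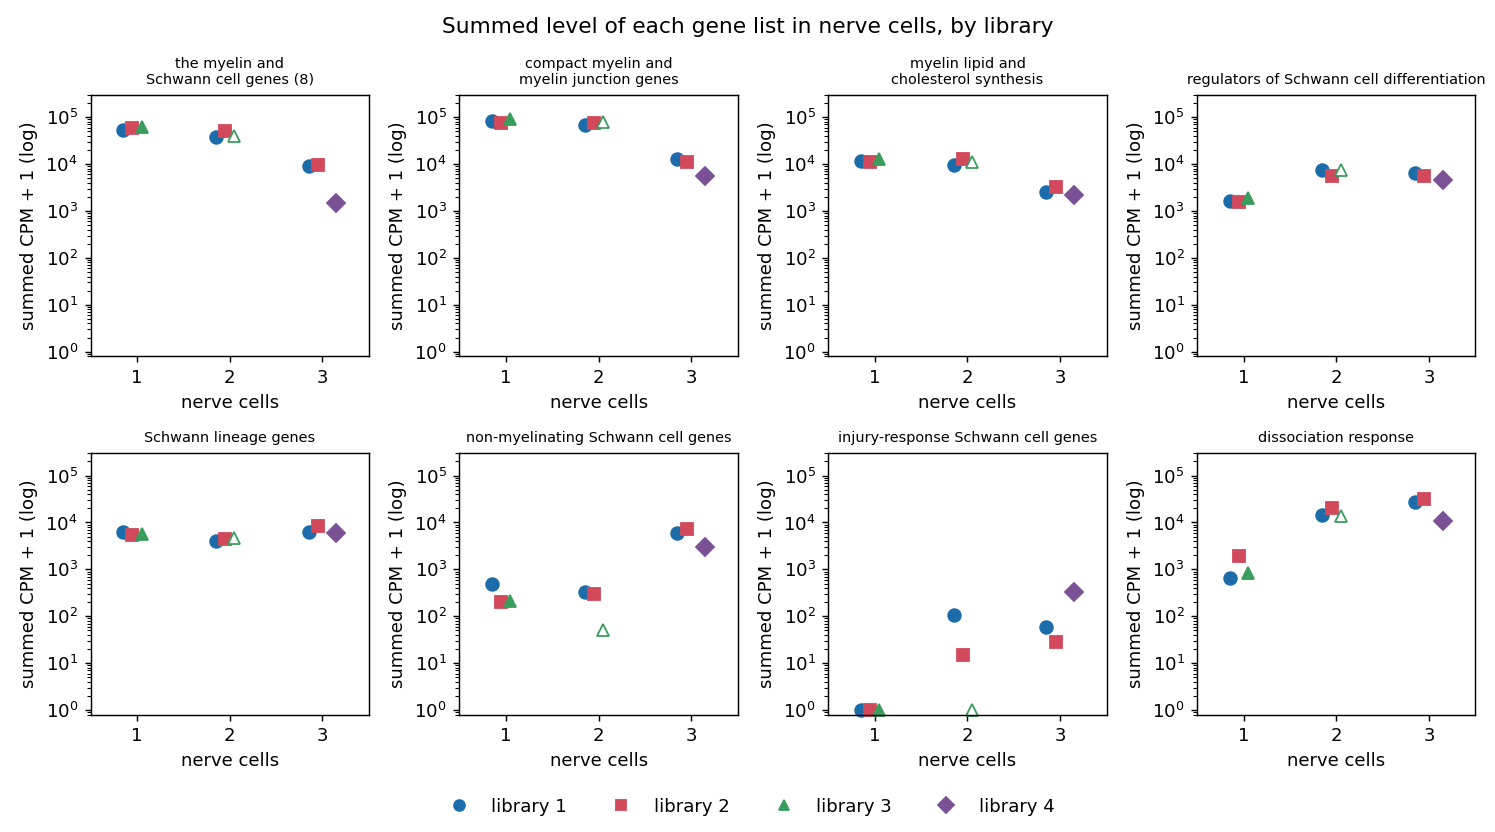
Summed CPM + 1 (log axis) of the 8 genes and of 7 gene lists in nerve cells 1, 2 and 3, 1 point per library, open for a sum of 3 cells. In the first 3 panels the points of nerve cells 3 lie lowest, in the panel of non-myelinating genes they lie highest, and in that of the dissociation response the points of nerve cells 1 lie lowest.

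Other measures differed between the populations along with these genes. The 15 genes of the response to tissue dissociation summed to 667, 1931 and 849 CPM in nerve cells 1, 14470 and 20042 CPM in nerve cells 2, and 27902, 31069 and 10700 CPM in nerve cells 3. Of them 0 were higher and 14 lower in nerve cells 1 than in nerve cells 2 (median -4.20), 14 lower in nerve cells 1 than in nerve cells 3 (median -4.52), and 1 lower in nerve cells 2 than in nerve cells 3. Of all genes, 1.74%, 5.25% and 3.98% were called lower in these comparisons. Fos was lower in nerve cells 1 than in nerve cells 2, at -4.37 ± 0.78 (adjusted p = 0.00015), as were Fosb at -4.24 ± 0.73 (adjusted p = 9.0e-05), Atf3 at -6.48 ± 0.96 (adjusted p = 5.2e-06) and Nr4a1, which was 11.3-fold lower (adjusted p = 2.3e-05). Jun, Egr2 and several of these genes are early response genes. The part of this response in the levels of Egr2, Jun and Pou3f1 was not tested.

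Markers of other cells were also present. Of 7 fibroblast markers, 5 had UMIs in nerve cells 1 and 6 in nerve cells 2 and 3, and they summed to 2328 to 2884 CPM in nerve cells 1, 1794 and 2694 CPM in nerve cells 2 and 2241 to 6087 CPM in nerve cells 3, with the tendon marker Tnmd at 0 in all 3. Of 6 endoneurial fibroblast markers, 3, 3 and 4 had UMIs, with sums of 294 to 977, 235 and 361, and 1333 to 3082 CPM, and Osr2 and Wif1 at 0. Of 8 perineurial markers, 6 have a row, of which 3, 3 and 4 had UMIs (278 to 400, 192 and 269, and 435 to 660 CPM), with Cldn1 and Lypd2 at 0. The 7 macrophage markers summed to at most 16.3 and 33.6 CPM in nerve cells 1 and 2 and to at most 444 CPM in nerve cells 3, with C1qa, C1qb, C1qc, Csf1r and Ptprc at 0. The 7 endothelial, 7 pericyte and 3 melanocyte markers with a row reached at most 150, 324 and 65.3 CPM, the 5 red blood cell markers 163 to 413 CPM and the 2 oligodendrocyte markers at most 33.3 CPM, and the 5 skeletal muscle markers were at 0. The part of these cells in the differences of nerve cells 3 was not tested, and neither was that of the lower number of UMIs per cell.

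As a description, the genes whose mean levels over the 13 populations ran most like each of the 8 were found among 4852 genes of 50 or more CPM in a nerve cell population (Pearson correlation of log2(mean CPM + 1)). The 13 points share libraries and depth. Closest to Mbp were Bcas1 (0.947), Shc4 and Gal3st1, to Pmp22 Mapk8ip1 (0.976), Magi2 and Abca2, to Mag Adamts20 (0.998), Gjc3 and Gpr37l1, and to Prx Hepacam (0.992), Fa2h and Ugt8a. Closest to Mal were Mgat3 (0.962), Kcna2 and Plxnb1, to Cnp Arhgap39 (0.980), Clip2 and Slc27a1, to Sox10 Cmtm5 (0.998), Gpr37l1 and Gjc3, and to Egr2 Nr4a2 (0.968), Hs2st1 and Scd2. Among the 28 pairs of the 8 genes, the correlation ran from 0.639 (Mbp with Egr2) to 0.992 (Mag with Sox10), with a median of 0.847.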

How the data were processed

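The series measured gene expression in single cells of the Achilles tendon in 4 libraries with version 3 of the 10x Genomics Chromium 3′ kit, per the labels. The authors deposited raw UMI counts per gene and cell and a table with the library and population of each cell. The submitters' processing notes name Cell Ranger, Seurat 2.3.4, R 3.5.2 and mm10, without saying which step each served. A deposited table of normalized values was not used here. Of 15750 gene rows, 4 with a repeated name were left out, and no cell or doublet was removed here. The deposited cells have at least 1010 UMIs. The samples are 1 group, so populations were compared over libraries.

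Counts were summed per library and population. Tests were those of edgeR 4.0.16 (quasi-likelihood, R 4.3.3, limma 3.58.1), with TMM, filterByExpr by population, the library as a block and Benjamini-Hochberg adjustment over all genes tested, at an adjusted p of 0.05. The joint fit had 39 sums and 23 residual degrees of freedom, and the fit of nerve against other cells had 8 sums and 3. Standard errors are the log2 difference divided by the square root of F. Sums of 1 library come from the same preparation, which is where the pairing comes from. Deviations of nerve sums of the same library correlated between -0.0027 and 0.14 over 3358 genes. Since the authors derived the populations from these counts, tests measure repeatability over libraries alone.

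Alternatives were DESeq2 1.42.0, RLE, no filter, other minimum cell numbers (3 and 10), no block, only nerve sums, thinning to 2400 UMIs, rebuilt clusters, leaving out each library and, added after seeing the data, leaving out 1 sum. Intervals of shares are exact Clopper-Pearson 95% intervals, and floors are 3 counts. Both cover counting error only. The test was tried on simulated counts. All 8 genes are named. The text also names the 3 genes most like each of them and the 4 most abundant of each list (some of these are not reported here), and others where a count turns on them, chosen after their values were seen (Dhh, Cdh19, Sox2, Id2, Sorcs1, Tspan2). The genes, lists and rules were chosen with earlier results of these data known. Promoters and positions are from RefSeq (GRCm38.p6). Python 3.11.15, pandas 2.3.3, scipy 1.17.1 and scikit-learn 1.9.0 were used.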

Additional observations from a re-analysis of the deposited data

Results flagged for a closer look

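In 29 combinations of a gene and a population with 4 libraries each, the highest or lowest library was compared with the others by its gap over the range, and 9 stood apart. Chance flags about 1 in 20 such groups of continuous values, but 5 of the 9 have the other libraries all at 0, where any single value stands apart by construction. No nerve cell population had 4 libraries with 5 or more cells, so the nerve sums were not part of this check. All 9 are high values, and most rest on a few UMIs.

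Mbp stood at 460 CPM in red blood cells of library 1, against 0, 18.5 and 20.1 CPM in the other libraries. Of its 134 UMIs, 133 lay in 1 cell of 1200 UMIs, which also held 9 UMIs of Prx and 0 of Hbb-bs and Hba-a1. Without that cell the level was 3.45 CPM. The same cell gave the level of Prx there, 30.9 CPM against 0 in the other 3 libraries.

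Mal stood at 403 CPM in pericytes of library 3, against 0, 0 and 23.3 CPM, with all 30 UMIs in 1 of 11 cells. It also stood at 52.8 CPM in endothelial cells 1 of library 3, against 0 to 8.31 CPM, with 10 UMIs in 3 cells. In red blood cells of library 2 it was at 3.35 CPM and in tendon fibroblasts 1 of library 1 at 1.59 CPM, against 0 in each of the other libraries.

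Mbp stood at 39.1 CPM in tendon fibroblasts 1 of library 2, against 14.3 to 17.5 CPM. Library 2 also had the largest share of nerve cells, 24.0% of its cells against 5.08% to 8.45% in the others. Pmp22 was at 20.1 CPM in red blood cells of library 2 and Sox10 at 2.08 CPM in endothelial cells 1 of library 2, against 0 in the other libraries. The part of free RNA in these values was not tested.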

How the results depend on the processing

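Among the log2 differences of the 8 genes under an alternative, 332 kept their direction and their side of the threshold, 16 became called, 11 lost their call and 23 changed sign, none of which was called. For nerve cells 1 against 2, the sign changed for Mbp with no filter (-0.064), no replicate block (-0.17), thinning to 2400 UMIs (-0.091) and without the sum of library 4 in nerve cells 3 (-0.0020), and ran from -0.22 to 0.37 on leaving out each library. It changed for Mag with RLE (0.45), sums of 3 or more cells (0.33), no replicate block (0.10), DESeq2 (0.48), nerve sums only (0.26) and thinning (0.36), with -0.28 to 0.52 on leaving out each library. It changed for Prx (-0.059) and Sox10 (-0.079) with no replicate block, and for Cnp with RLE (0.077), DESeq2 (0.013) and nerve sums only (0.15). On leaving out each library, Mal ran from -0.25 to 0.52 and Sox10 from -0.29 to 0.39. For Egr2, leaving out each library gave -0.88 to 0.25 for nerve cells 1 against 3 and -0.42 to 0.59 for nerve cells 2 against 3, and no replicate block gave 0.16 for the latter. The cause was not tested.

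Genes called numbered 188, 893 and 778 for nerve cells 1 against 2, 1 against 3 and 2 against 3, and 1905 for nerve against other cells. Thinning left 102, 518 and 293 with 4102 genes tested. Nerve sums only gave 509 for nerve cells 2 against 3, with 1580 genes tested. No filter gave 3087 for nerve against other cells. Leaving out each library gave 61 to 234, 449 to 767, 212 to 739 and 965 to 2670, lowest without library 2. Without library 1 the counts were 77, 539, 390 and 1181. Without the replicate block they were 179, 954, 788 and 2363. The rebuilt clusters held none for nerve cells 2, so its comparisons were not run with them. Depth limits Mag, Prx, Sox10 and Egr2 most, with 14 to 54 UMIs each in nerve cells 3.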
